A study of Mus musculus with 4 samples.

Results

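Atp2b1, Atp2b2, Atp2b3 and Atp2b4 encode the plasma membrane calcium pumps, and their splicing was followed in mouse brain with and without PTBP2. All exon trios of these 4 genes were taken, a trio being a middle exon with its neighbors on either side. They were found by chromosome, strand, middle exon size and intron lengths in the GENCODE M21 annotation, which gave 107 of 228333 trios. Of these, 102 matched the exon and both introns, 3 matched 2 introns and 2 shared a middle exon with a named trio. The trios held 89 distinct middle exons or alternative sites of 190106 in all, with 20 in Atp2b1, 27 in Atp2b2, 20 in Atp2b3 and 22 in Atp2b4. Each such exon or site is called an event here and is represented by its trio with the most junction reads.

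The study removed the splicing regulator PTBP2 by deleting exon 4 of Ptbp2 with Cre recombinase. The E18 RNAseq libraries came from whole brain, 1 from NesKO embryos, in which Cre is driven by the nestin promoter in neural progenitors, and 1 from wild-type littermates, each from the RNA of 2 brains. The P1 libraries came from cortex, 1 from EmxKO mice, in which the Emx1 promoter drives Cre in the dorsal forebrain, and 1 from littermates labelled wild type, and how many animals each holds is not given in the sources used here. The label of every library gives a mixed C56Bl/6:129S2 background, where the study's methods name C57Bl/6, to which the knockouts had been backcrossed for some generations, and only the P1 libraries were strand specific, so stage, tissue, Cre line and protocol cannot be told apart.

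Exon 4 of Ptbp2 was skipped in 100% of its junction reads in the NesKO, 0.225% in the E18 wild type, 82.6% in the EmxKO and 31.5% in the P1 library labelled wild type. The last value does not match a wild-type label, so that library is called "labelled wild type" throughout, and every P1 direction below rests on it. The 4 libraries held 48367448 to 83394001 reads on distinct junctions, and the median pump event had 548 to 906 junction reads, so that 3 reads amounted to between 0.331 and 0.547% of the total. Cortical markers summed to 20.2 and 23.5 reads per junction per 1000000 junction reads in the E18 libraries and 59.8 and 68.4 at P1, while the measured hindbrain and midbrain markers, Hoxb3 and Pax7, summed to 0.744 and 0.976 at E18 and had a median level of 0 at P1. With 1 library per group there is no replicate check: each test compares the reads of 2 libraries, not the conditions, and covers counting error only.

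The pumps push calcium out of the cytosol at the cost of ATP and restore the low resting level after a signal. They carry a pair of well known sites of alternative splicing. Splice site A lies in the cytosolic loop before the third membrane span, near a region that binds phospholipids. Splice site C lies within the calmodulin-binding region of the C-terminal tail, where skipping of the exon gives the "b" pumps, whose tail ends in a PDZ-binding motif, and inclusion shifts the frame and gives the "a" pumps with another tail. Genotype differences were called at site C of Atp2b4 at both stages, and at site C of Atp2b1 and site A of Atp2b3 at P1 only. In the leader exons of Atp2b2 a difference was called at E18 only, by counts of competing junctions that were added after the data had been seen. Whether that difference lies in the start of transcription or in splicing was not tested.

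The site C exons are shown because the Atp2b4 exon was called at both stages. Sequences are the sense strand of GENCODE transcripts in GRCm38, 5′ to 3′. In Atp2b1 (chr10:99019278-99019431, plus strand) and Atp2b3 (chrX:73559864-73560017, plus strand) the exon has 154 nt, and capitals mark the 98 bases, 63.6%, that are the same at the same position. In Atp2b4 (chr1:133711632-133711822, minus strand) 1 acceptor is used with 2 donors, giving 181 or 191 nt, and capitals mark the 10 bases present only in the longer form. The first site C exon of Atp2b2 (chr6:113755217-113755388, minus strand) has 172 nt and is printed without capitals.
Atp2b1: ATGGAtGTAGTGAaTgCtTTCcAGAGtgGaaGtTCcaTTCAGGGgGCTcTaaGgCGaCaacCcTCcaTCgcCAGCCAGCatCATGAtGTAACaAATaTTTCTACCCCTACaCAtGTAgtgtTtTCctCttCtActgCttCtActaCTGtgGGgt
Atp2b3: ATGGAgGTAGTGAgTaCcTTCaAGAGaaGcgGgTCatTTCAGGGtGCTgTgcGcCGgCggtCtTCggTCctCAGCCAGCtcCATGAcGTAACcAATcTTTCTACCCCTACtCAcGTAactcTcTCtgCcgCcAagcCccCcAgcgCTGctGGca
Atp2b4: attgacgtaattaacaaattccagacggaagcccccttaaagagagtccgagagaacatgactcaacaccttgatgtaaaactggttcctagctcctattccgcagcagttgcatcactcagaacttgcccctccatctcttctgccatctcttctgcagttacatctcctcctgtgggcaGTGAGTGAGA
Atp2b2: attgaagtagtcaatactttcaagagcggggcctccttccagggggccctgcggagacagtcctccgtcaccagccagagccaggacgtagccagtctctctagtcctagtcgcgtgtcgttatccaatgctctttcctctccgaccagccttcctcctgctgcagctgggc

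None of these lengths is a multiple of 3, so each exon shifts the frame of what follows. In the annotated transcripts, 309 coding bases follow the last shared exon of Atp2b1 when its exon is skipped and 177 when it is included. The same counts were 309 and 177 in Atp2b2 and 318 and 177 in the longest Atp2b3 transcripts. In Atp2b4 the tail has 303 coding bases without the exon, 204 with the form of 181 nt and 186 with that of 191 nt, whose reading frame ends inside the exon. Other annotated coding transcripts differ. Without the exon, another transcript has 102 such bases in Atp2b1, 90 in Atp2b3 and 9 in Atp2b4. A further Atp2b1 transcript has a site C exon of 87 nt, a multiple of 3, and 396 such bases.

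Site A exons are shown because they are the short, frame-preserving counterpart. Capitals in the Atp2b2 (chr6:113797110-113797151, minus strand) and Atp2b3 (chrX:73533885-73533926, plus strand) exons of 42 nt mark the 27 bases shared at the same position, 64.3%. The exons of Atp2b1 (39 nt, chr10:98993867-98993905, plus strand) and Atp2b4 (36 nt, chr1:133736616-133736651, minus strand) are printed without capitals. All 4 lengths are multiples of 3, and all 4 exons are coding.
Atp2b1: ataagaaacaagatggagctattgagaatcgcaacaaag
Atp2b2: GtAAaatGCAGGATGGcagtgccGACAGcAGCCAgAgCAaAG
Atp2b3: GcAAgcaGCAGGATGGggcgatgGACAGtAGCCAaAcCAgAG
Atp2b4: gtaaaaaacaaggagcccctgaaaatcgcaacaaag

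Splice site C of Atp2b4 was included more often in the NesKO than in the E18 wild type, and more often in the EmxKO than in the P1 library labelled wild type. Inclusion is given as percent spliced in (PSI), the ratio that the program SpliceTrap estimated for the middle exon after its correction, and beside it as junction-read PSI, computed from the reads on the 3 junctions of the trio with a 95% Wilson interval. The exon of 191 nt (chromosome 1, 135608209 to 135608399 in mm9, the build of the deposited tables) was in the NesKO at a PSI of 67.0, in the E18 wild type at 45.0, in the EmxKO at 58.7 and in the P1 library labelled wild type at 36.3. Its skipping reads numbered 51, 141, 100 and 212 in the same order. Junction-read PSI was 69.5 (62.1 to 75.9) in the NesKO against 45.6 (39.6 to 51.6) in the E18 wild type, and the intervals did not overlap. At P1 it was 70.0 (64.8 to 74.6) in the EmxKO against 40.4 (35.5 to 45.6), again without overlap. These values average the donor junction of this form with an acceptor junction that the 181 nt form also uses. The donor junction had 57, 45, 110 and 43 reads in the order above, and the acceptor junction 175, 191, 356 and 244. The values are therefore not inclusion of the 191 nt form alone, and the intervals do not cover that disagreement. The PSI differences were 22.0 points at E18 (adjusted p = 0.0010, Fisher's exact test on the reads) and 22.4 points at P1 (adjusted p = 1.0e-11, Fisher's exact test).

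The form of 181 nt, which shares the acceptor and the skipping reads, was in the NesKO at a PSI of 80.6, in the E18 wild type at 63.0, in the EmxKO at 73.0 and in the P1 library labelled wild type at 47.3. Its differences were 17.6 points at E18 (adjusted p = 0.0096, Fisher's exact test) and 25.7 points at P1 (adjusted p = 1.0e-10, Fisher's exact test). Another trio of this form, with a different annotated last exon and the same junction reads, has deposited PSI values of 68.4, 48.1, 62.5 and 40.6. That last exon is the one in the trio given above for the 191 nt form. With the last exon of the 181 nt trio, the 191 nt form has PSI values of 79.7, 60.9, 69.7 and 44.8. The level thus depends on the annotated neighbor while the order of the libraries does not. With the same neighbor the 2 forms lie close. Because both forms share reads, they are 1 exon and not independent events, and neither PSI is inclusion of 1 form alone.

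Counting reads at the splice sites themselves gave the same picture for Atp2b4. These shares were added after the data had been seen, and the reads of a junction are the most that any trio lists for it. Of the reads that left the preceding exon of 177 nt, 73 of 279 joined the last exon directly in the NesKO, a share of 26.2% (21.4 to 31.6). The share was 183 of 423 in the E18 wild type (43.3%, 38.6 to 48.0), 137 of 530 in the EmxKO (25.8%, 22.3 to 29.7) and 232 of 515 in the P1 library labelled wild type (45.0%). Skipping was lower in the mutant at E18 (adjusted p = 0.0026, Fisher's exact test over all competing junctions) and at P1 (adjusted p = 8.6e-08, Fisher's exact test). The 2 mutant libraries lay within 1 point of each other, and the other 2 within 2 points.

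The 2 donors of the Atp2b4 exon were also counted by their share of all reads entering the last exon, which includes the skipping reads and so rises with inclusion of the exon. Among reads that entered the last exon, the donor of the 191 nt form supplied 57 of 205 in the NesKO and 45 of 330 in the E18 wild type, which is 27.8 and 13.6%. At P1 it supplied 110 of 432 in the EmxKO and 43 of 400 in the library labelled wild type, or 25.5 and 10.8%. Both differences passed the test (adjusted p = 0.028 at E18 and 2.3e-05 at P1, Fisher's exact test). The donor of the 181 nt form supplied 36.6 and 30.9% at E18 and 42.8 and 31.2% at P1 and did not pass (adjusted p = 1 and 0.11, Fisher's exact test). The choice between the 2 donors alone was not called at either stage. The alternative donor event of 10 nt had PSI values of 39.3, 25.3, 34.2 and 21 in the order of libraries used above, differences of 14.0 and 13.2 points (adjusted p = 1 and 0.76, Fisher's exact test).

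**Figure D1:**
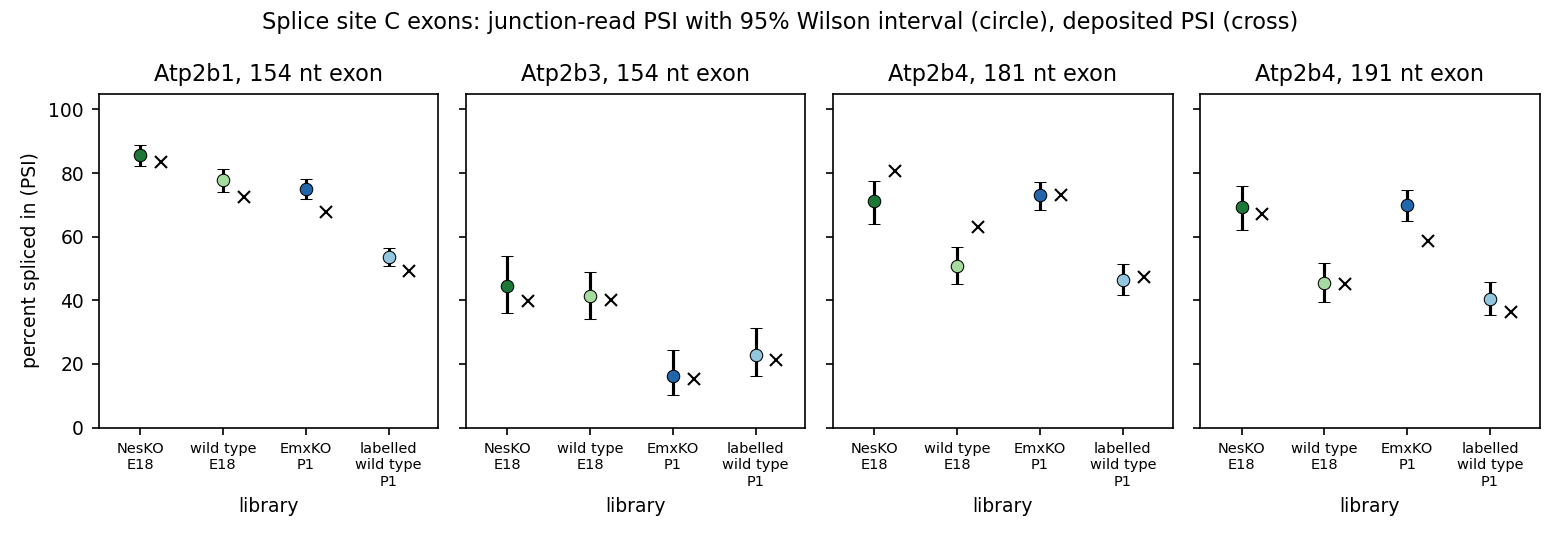
Percent spliced in of the splice site C exons in each of the 4 libraries (x axis), with junction-read PSI as circles, 95% Wilson intervals as lines and the deposited PSI as crosses. In both Atp2b4 panels, which share the acceptor and the skipping reads, the NesKO and EmxKO circles lie near 70, above the other 2 libraries. In Atp2b1 the P1 library labelled wild type lies below all others at 53.6.

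In Atp2b1, the most highly expressed pump in all 4 libraries, the site C exon of 154 nt (chromosome 10, 98481912 to 98482065 in mm9) was the most included of the site C exons in the NesKO, at a PSI of 83.5. In the E18 wild type it was at 72.5, in the EmxKO at 67.8 and at 49.1 in the P1 library labelled wild type, with 58, 116, 170 and 575 skipping reads. At P1 junction-read PSI was 75.1 (71.8 to 78.2) in the EmxKO and 53.6 (50.8 to 56.4) in the library labelled wild type, a difference of 21.6 points (17.2 to 25.7), and the exon was called (adjusted p = 1.3e-17, Fisher's exact test). At E18 the PSI difference was 11 points, over the 10 points that a call needs. Junction-read PSI differed by 7.9 points (2.9 to 12.7) in the same direction. The exon was not called at E18 (adjusted p = 0.49, Fisher's exact test). Over events labelled as cassette exons alone the adjusted p was 0.0504 (Fisher's exact test), also not a call. The study itself lists Atp2b1 among known direct targets of PTBP1 and PTBP2 that were spliced differently in its knockout mice. Its main text does not name the exon. That the exon was called at 1 stage only does not show a difference between stages, for which the Wald test gave an unadjusted p of 0.038 and an adjusted p of 1.

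Between the libraries labelled wild type, the PSI of this Atp2b1 exon fell by 23.4 points from E18 to P1 (adjusted p = 8.4e-20, Fisher's exact test). Of the reads that left the preceding exon, 134 of 596 skipped it in the E18 wild type, 22.5%, against 621 of 1401 in the P1 library labelled wild type, 44.3%. The NesKO and EmxKO shares were 14.3 and 23.9%. The E18 wild type and the EmxKO thus had close shares of skipping, and the P1 library labelled wild type alone stood above them.

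For Atp2b3, which encodes a pump found mainly in neurons, no genotype difference at site C was called. Its exon of 154 nt (chromosome X, 70805203 to 70805356 in mm9) stood at PSI values of 39.9 and 40.1 in the NesKO and the E18 wild type, and of 15.3 and 21.1 in the EmxKO and the P1 library labelled wild type. The differences of junction-read PSI were 3.2 points (-8.3 to 14.9) at E18 and -6.7 points (-16.9 to 3.9) at P1, intervals that still allow changes of over 10 points. Its trio had 164, 238, 122 and 145 junction reads, fewer in every library than the 759, 934, 1197 and 1902 of the Atp2b1 exon. From the E18 wild type to the P1 library labelled wild type its PSI fell by 19.0 points, which was not called over all events (adjusted p = 0.072, Fisher's exact test) but was over events labelled as cassette exons alone (adjusted p = 0.0097, Fisher's exact test), of which 11.2% were called.

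Atp2b2, whose pump is known for its role in hair cells and cerebellar Purkinje cells, has 2 site C exons, and its trios describe them poorly. The trio of the 172 nt exon (chromosome 6, 113705211 to 113705382 in mm9) gave a PSI of 37.7, 40.6, 36.7 and 35.4 in the NesKO, E18 wild type, EmxKO and P1 library labelled wild type, yet it listed no skipping read in 3 libraries and 1 in the EmxKO. Its skipping junction runs from the preceding exon of 183 nt past the exon of 127 nt as well, which is outside the trio. Counted at the donor of the 183 nt exon, 72 of 298 reads entered the 172 nt exon in the NesKO, 141 of 541 in the E18 wild type, 101 of 563 in the EmxKO and 79 of 420 in the P1 library labelled wild type. Those are shares of 24.2, 26.1, 17.9 and 18.8%, and no pair passed (adjusted p = 1 for both genotype comparisons and 0.23 between the libraries labelled wild type, Fisher's exact test).

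From the 172 nt exon, the transcript continued either to the exon of 127 nt, in which the reading frame ends, or straight to the last exon. The share that continued to the 127 nt exon was 15 of 37 reads in the NesKO, 31 of 59 in the E18 wild type, 13 of 81 in the EmxKO and 9 of 59 in the P1 library labelled wild type. At E18 these were 40.5 and 52.5%, and at P1 16.0 and 15.3%. Between the libraries labelled wild type the shares differed (adjusted p = 0.0021, Fisher's exact test). Neither genotype comparison passed (adjusted p = 1 for each, Fisher's exact test). The 1 annotated transcript with both exons is a target of nonsense-mediated decay by its annotation.

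**Figure D2:**
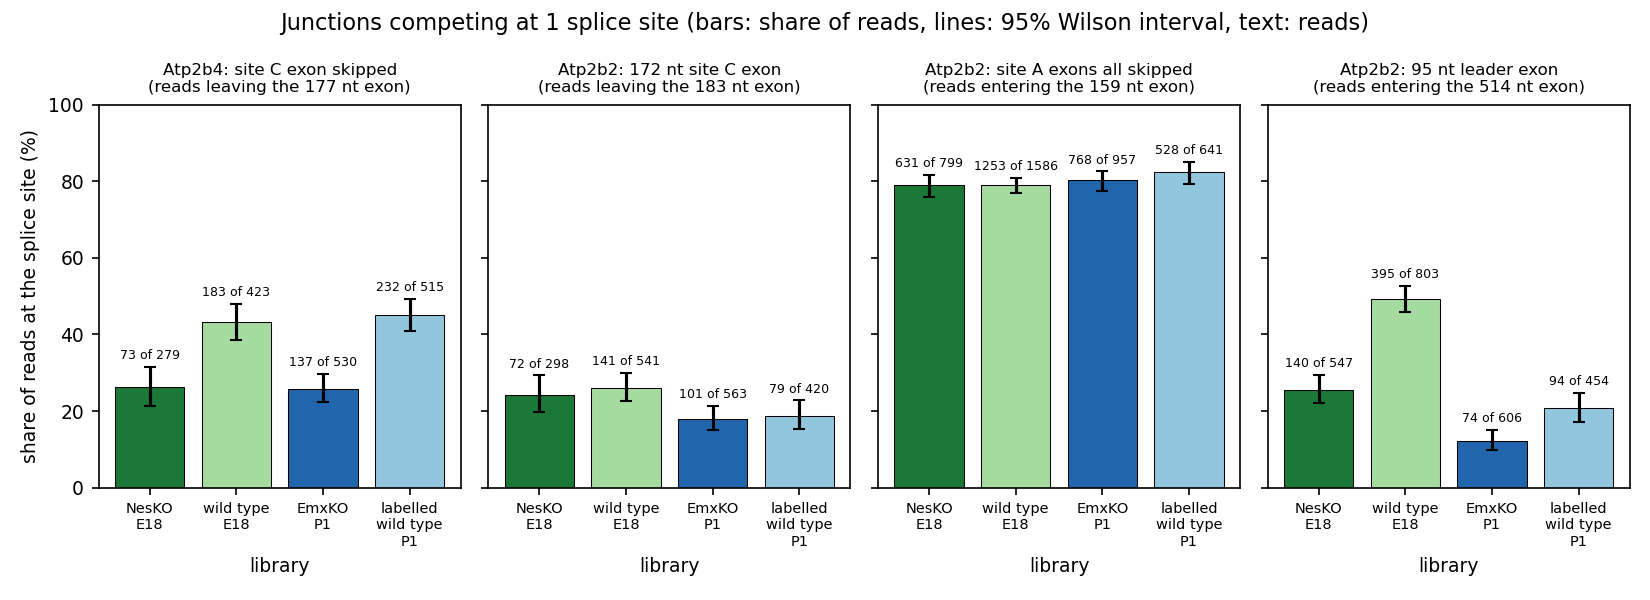
Share of reads at 1 splice site that use the named junction (y axis, percent) in the 4 libraries, with 95% Wilson intervals as lines and the reads printed above each bar. Skipping of the Atp2b4 site C exon is lower in both mutant libraries, the Atp2b2 site C and site A shares lie close together across libraries, and the Atp2b2 leader exon share falls from 49.2% in the E18 wild type to 25.6% in the NesKO.

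At splice site A, the 39 nt exon of Atp2b1 was included at a PSI of 99.8 or more in all 4 libraries, with at most 2 skipping reads among 724 to 1372 junction reads. The 42 nt exon of Atp2b3 (chromosome X, 70779224 to 70779265 in mm9) was in the NesKO at a PSI of 90.6, in the E18 wild type at 91.0, in the EmxKO at 92.2 and in the P1 library labelled wild type at 72.5. Its skipping reads numbered 15, 28, 9 and 41. Thus 3 libraries lay within 2 points of deposited PSI and the P1 library labelled wild type stood apart. Junction-read PSI was 86.3, 86.5, 91.2 and 69.4 in the same order. At P1 the exon was called higher in the EmxKO by 19.7 points (adjusted p = 0.013, Fisher's exact test), while between the libraries labelled wild type its PSI fell by 18.5 points from E18 to P1 and was called (adjusted p = 0.012, Fisher's exact test). Its 2 inclusion junctions had unequal reads, 133 and 53 in the EmxKO and 145 and 41 in the P1 library labelled wild type. With the smaller inclusion junction the exon was still called at P1 (adjusted p = 0.0034, Fisher's exact test). At E18 the difference of junction-read PSI was -0.2 points (-8.8 to 7.3). The test of the difference between stages had the lowest unadjusted p of all pump events here, 0.0036, and an adjusted p of 1 (Wald test).

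The site A exon of Atp2b4 (36 nt, chromosome 1, 135633193 to 135633228 in mm9) had a PSI of 69.4, 76.6, 30.0 and 54.8 in the NesKO, E18 wild type, EmxKO and P1 library labelled wild type, on 53, 129, 67 and 67 junction reads. Its P1 difference of -24.8 points ran opposite to that of site C in the same gene and was not called (adjusted p = 0.33, Fisher's exact test). Junction-read PSI was 41.1 (28.8 to 55.7) in the EmxKO and 74.0 (58.9 to 85.4) in the library labelled wild type. These values average 2 inclusion junctions with unequal reads, 29 and 10 in the EmxKO and 48 and 9 in the library labelled wild type. The intervals do not cover that disagreement, and with the smaller inclusion junction the exon was not called either. At E18 the difference of junction-read PSI was -6.9 points (-26.3 to 11.5).

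Atp2b2 has 3 site A exons, of 33, 60 and 42 nt, each skipped by 4 annotated coding transcripts and included by 1. All 3 together were skipped by most reads. Of the reads that entered the following exon of 159 nt, those coming directly from the preceding exon of 126 nt were 631 of 799 in the NesKO, 1253 of 1586 in the E18 wild type, 768 of 957 in the EmxKO and 528 of 641 in the P1 library labelled wild type. The shares were 79.0, 79.0, 80.3 and 82.4%. The 42 nt exon supplied 20.4, 20.7, 19.4 and 17.2%, and none of the 3 comparisons passed (adjusted p = 1 for both genotype comparisons and 0.94 between the libraries labelled wild type, Fisher's exact test). Its deposited PSI of 90.4, 95.9, 93.0 and 87.7 is inclusion against the 60 nt exon joined to the 159 nt exon, which had 3 to 5 reads, and does not describe this main choice. The 33 nt exon had a PSI of 61.1, 72.9, 17.1 and 39.5 on 25 to 77 junction reads and was not called. The 60 nt exon was listed at a PSI of 0 with 6 to 28 junction reads, under the minimum of 20 in 3 libraries, although each of those reads is an inclusion read. Reads of 100 nt run past both ends of exons this short, and their counts were low and differed between trios that list the same junction.

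**Figure D3:**
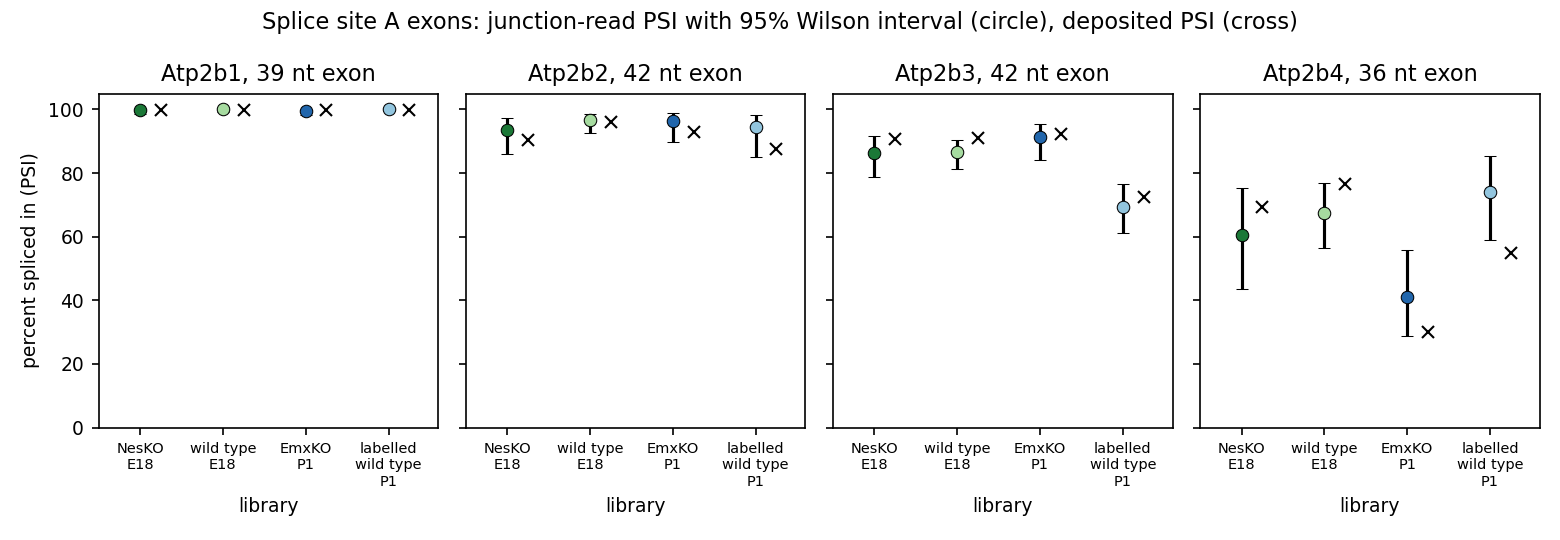
Percent spliced in of 1 splice site A exon of each pump gene in the 4 libraries (x axis), drawn as for site C. The Atp2b3 exon is lower in the P1 library labelled wild type, at a deposited PSI of 72.5, and the Atp2b2 panel shows inclusion against the neighboring 60 nt exon only, not against skipping of all 3 exons.

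Both E18 libraries had 20 or more junction reads for 88 pump events, and 2 of them were called, both higher in the NesKO, which is 2.27% against 0.148% of the 132260 events of all genes called in either direction and 0.103% called higher. A call needed an adjusted p below 0.05 over all events of all genes and a PSI difference of at least 10 points in the direction of junction-read PSI. At P1 4 of 88 were called, all higher in the EmxKO, or 4.55% against 0.191% of all events in either direction and 0.149% higher. Between the libraries labelled wild type 2 of 88 were called, both lower at P1, or 2.27% against 0.853% in either direction and 0.533% lower. The 2 Atp2b4 calls at E18 and at P1 are 1 exon each time. Among events with at least 20 skipping reads in the pair of libraries, pumps called were 2 of 8 at E18, 4 of 9 at P1 and 2 of 10 between the libraries labelled wild type, against 1.96, 1.93 and 8.78% of such events in all genes. The median PSI difference of the pump events was 0 in each comparison, since 76 of 88 had a PSI of at least 95 in both libraries.

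No pump event was called for a genotype difference that differed between stages by the Wald test, against 0.0764% of 125694 events. At an unadjusted p below 0.05 there were 3 of 88, against 1418 of the 125694 events of all genes. The 3 were the Atp2b3 exon of 42 nt and the Atp2b1 exons of 154 and 198 nt. That 198 nt exon of Atp2b1 (chromosome 10, 98442338 to 98442535 in mm9) is coding and lies early in the protein. Its skipping reads numbered 1 in the NesKO, 0 in the E18 wild type, 2 in the EmxKO and 50 in the P1 library labelled wild type. At P1 its PSI was 99.8 in the EmxKO and 95.5 in the library labelled wild type, which passed the test on reads (adjusted p = 2.0e-05, Fisher's exact test) at 4.3 points, under the size a call needs.

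By competing junctions, 3 of 194 pump junctions were called at E18, 6 of 193 at P1 and 5 of 193 between the libraries labelled wild type, against 0.158, 0.19 and 1.17% of the junctions of all genes. Besides those given above, they included a choice of leader exons in Atp2b2. Reads that entered its first coding exon of 514 nt (chromosome 6, 113792126 to 113792639 in mm9) came mainly from a noncoding exon of 95 nt (113870503 to 113870597) or from one of 124 nt. The 95 nt exon supplied 140 of 547 reads in the NesKO, 395 of 803 in the E18 wild type, 74 of 606 in the EmxKO and 94 of 454 in the P1 library labelled wild type. These are shares of 25.6% (22.1 to 29.4), 49.2% (45.7 to 52.6), 12.2% (9.84 to 15.1) and 20.7%. The mutant share was lower at both stages, called at E18 (adjusted p = 3.8e-15, Fisher's exact test) but not at P1 (adjusted p = 0.053, Fisher's exact test). The 124 nt exon supplied 73.5, 49.1, 83.5 and 77.3%. It is an outer exon in the trios and the middle exon of none, so a change in the start of transcription and one in splicing cannot be told apart. The trio of the 95 nt exon, with 3 to 13 skipping reads, had deposited PSI values of 61.2, 93.7, 14.9 and 25.3 and was not called in any comparison (adjusted p = 1 in each, Fisher's exact test).

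Gene levels were taken as the median reads per distinct junction per 1000000 junction reads, a scale that does not grow with gene length. Atp2b1 was at 8.26 in the NesKO, 11.3 in the E18 wild type, 9.40 in the EmxKO and 16.5 in the P1 library labelled wild type. Atp2b2 was at 6.39, 7.97, 6.09 and 4.64 in the same order, Atp2b4 at 3.14, 4.17, 4.67 and 3.80, and Atp2b3, the lowest in every library, at 2.58, 3.38, 1.72 and 1.77. The order of Atp2b1, Atp2b2, Atp2b4 and Atp2b3 from high to low held in all 4 libraries, but the quartile ranges over junctions of neighbors in this order overlapped in each library, except those of Atp2b1 and Atp2b2 in the P1 library labelled wild type. In Atp2b4 the quartiles were 0.69 to 6.05 in the EmxKO and 0.62 to 5.46 in the P1 library labelled wild type. There its junctions up to site A had fewer reads than most later ones, so its median does not describe the whole gene.

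At E18 all 4 pump genes had a lower level in the NesKO, at ratios of 0.73 for Atp2b1, 0.80 for Atp2b2, 0.77 for Atp2b3 and 0.75 for Atp2b4, while the median of 8368 genes was 0.982. A level at least 1.5 times lower was reached by none of them and by 6.48% of genes. At P1 the ratio of the EmxKO to the library labelled wild type was 0.57 for Atp2b1, 1.31 for Atp2b2, 0.97 for Atp2b3 and 1.23 for Atp2b4, with a median of 1.03 over 8462 genes. Atp2b1 alone passed 1.5 times lower, as did 17.6% of genes. Between the libraries labelled wild type the ratio of P1 to E18 was 1.46 for Atp2b1, 0.58 for Atp2b2, 0.52 for Atp2b3 and 0.91 for Atp2b4, while the median of 8865 genes was 1.20, a shift of 0.26 on the log2 scale. Relative to that median the ratios were 1.22, 0.49, 0.44 and 0.76. Without that division Atp2b2 and Atp2b3 were at least 1.5 times lower at P1, as were 16.4% of genes, and no pump gene was 1.5 times higher, as were 33.7%. These levels have no test. Fewer cells of a type and less RNA per cell cannot be told apart in such tissue. Summed markers of microglia were 8.16 and 5.19 on this scale in the NesKO and E18 wild type and 4.07 and 2.55 in the EmxKO and the P1 library labelled wild type, and the red blood cell markers, nearly all Hbb-bt, were at 705, 540, 77.7 and 81.2. Neuron markers summed to 390, 453, 544 and 464, mostly Tubb3 at 357, 392, 500.3 and 400.1. Of the other neuron markers, Snap25, which encodes a protein of synaptic vesicle fusion, was at 14.6 in the NesKO against 34.0 in the E18 wild type and at 12.7 in the EmxKO against 25.6. Map2 was at 8.03, 10.7, 13.7 and 20.5, Syt1 at 5.66, 10.9, 12.3 and 13.0 and Rbfox3 at 5.25, 5.49, 5.22 and 4.56 in the same order, so that Snap25, Map2 and Syt1 were each lower in both mutant libraries. Their part in the pump results was not tested.

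**Figure D4:**
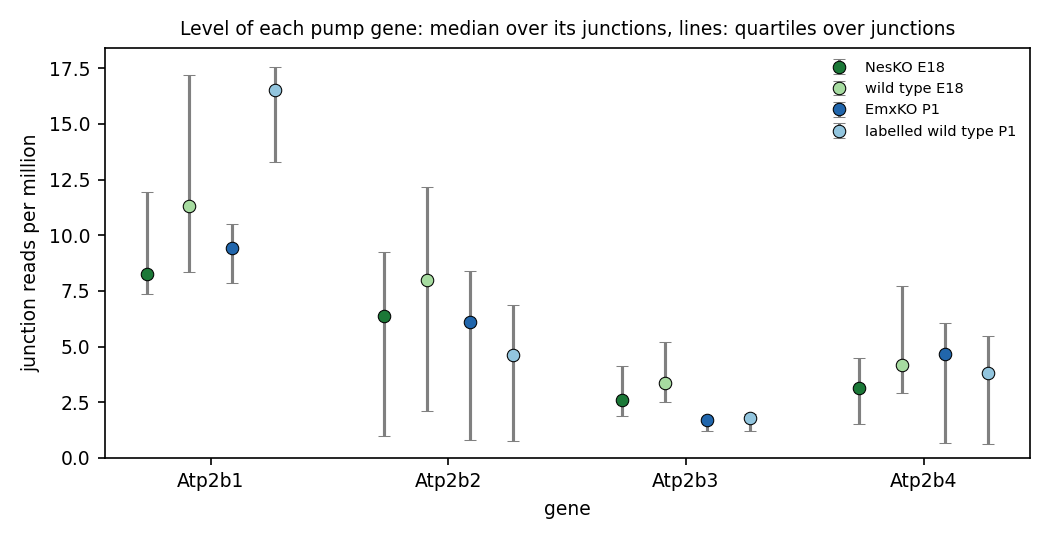
Level of each pump gene (x axis) as reads per junction per 1000000 junction reads (y axis), with the median over the junctions of the gene as points and the quartiles over its junctions as lines, for the 4 libraries. Atp2b1 has the highest median in each library, and its P1 level is 9.40 in the EmxKO against 16.5 in the library labelled wild type.

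Other genes that clear or release calcium were counted from a list of 30, with the intracellular pumps, sodium-calcium exchangers, calmodulins, mitochondrial uptake proteins, release channels and the pump partner neuroplastin. At E18 1 of 672 events was called, 0.149%, at P1 1 of 659, 0.152%, and between the libraries labelled wild type 1 of 643, 0.156%. The shares are near those of all genes at E18 and P1 and below it between the libraries labelled wild type. The event called in both genotype comparisons was in Nptn, which encodes neuroplastin, a membrane protein known as a subunit of the calcium pumps. Its exon of 348 nt (chromosome 9, 58466470 to 58466817 in mm9) reached a PSI of 30.9 in the NesKO against 18.2 in its control, with 461 and 565 skipping reads (adjusted p = 1.5e-06 by Fisher's exact test). The EmxKO and the P1 library labelled wild type had PSI values of 23.7 and 10.3 (adjusted p = 9.8e-27 by Fisher's exact test), with 1589 and 2091 skipping reads. The third was a 45 nt exon of Itpr1, the inositol trisphosphate receptor that releases calcium from the endoplasmic reticulum, at 97.5 in the P1 library labelled wild type and 82.8 at E18 (adjusted p = 6.6e-06, Fisher's exact test).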

How the data were processed

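Polyadenylated RNA of 4 libraries was sequenced by the authors with paired ends of 100 nt. The sources used here name TopHat, Cufflinks and CASAVA among the tools and mm9 as the build. The authors ran SpliceTrap and deposited, per trio, an inclusion ratio before and after correction, a fraction, and counts of reads on its 3 junctions. PSI is the deposited fraction after correction, in percent. Trios were named by exon and intron sizes in GENCODE M21, which is on GRCm38, so no coordinates were converted: positions are in mm9 for events and in GRCm38 for sequences.

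Each event was compared between 2 libraries with a two-sided Fisher's exact test on the mean of the inclusion reads, rounded up, and the skipping reads, with Benjamini-Hochberg adjustment over every event that reached 20 junction reads in each of the pair. The Wald test compared the log odds ratios of the 2 stages, with 0.5 added to each count. Intervals at the 95% level are Wilson's for shares and Newcombe's for differences, and cover counting error only. Python 3.11.15, numpy 2.4.6, pandas 2.3.3, scipy 1.17.1 and matplotlib 3.10.9 were used. On simulated reads for 125694 events, 137 of 200 changed events were recovered in the E18 comparison, with 1 false call. The Wald test of the difference between stages recovered 95 of 200, with 0 false calls. All changed events began at low to middle inclusion and were given 1 size of change, larger than any PSI difference called for the pumps. The counts therefore do not give the recovery of differences as small as those reported here. The rate of false calls between libraries of the same group was not tested, because each group has 1 library. Exons named with values were those that annotated coding transcripts both include and skip, or with at least 20 skipping reads in a library, and every called event. The 39 and 95 nt exons and the junction shares fall outside this rule and were chosen after their values were seen. The members and lists were chosen with earlier results of these data known, so that counts of members are descriptions.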

Additional observations from a re-analysis of the deposited data

How the results depend on the processing

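The PSI differences of the named exons and the counts of called pump events were recomputed with PSI from junction reads, with the ratio before correction, with the trio of most skipping reads, with minimums of 10 and 50 reads, with the smaller inclusion junction, over cassette-labelled events and with calls at 5 or 20 points. No called difference changed sign, but a call already needed the direction of junction-read PSI, so that alternative could not reverse one. Of differences not called, 5 changed sign with PSI from junction reads: at E18 the Atp2b1 exon of 198 nt went to -0.31 points, the Atp2b2 exon of 33 nt to 1.38 and the Atp2b3 exon of 154 nt to 3.25 (0.20 with the ratio before correction), at P1 the Atp2b2 exon of 172 nt went to -1.82, and between the libraries labelled wild type the Atp2b4 exon of 36 nt went from -21.8 to 6.49. The E18 count fell from 2 to 1 with the smaller inclusion junction, where the 181 nt form of Atp2b4 was lost (adjusted p = 0.39, Fisher's exact test), and to 1 at 20 points. At 20 points the P1 count fell from 4 to 2 and that between the libraries labelled wild type from 2 to 1. Counted as competing junctions, an alternative added after the data were seen, the last was 5. The Atp2b3 site C exon gained a call between the libraries labelled wild type over cassette-labelled events. Over those events the P1 count was 3, since the Atp2b3 site A exon is not labelled as a cassette exon. Under the other trio alternatives the counts of called events did not move. No paired analysis was possible because each group has 1 library, which also means that no replicate could be left out. Short exons and events with under 20 skipping reads are limited by depth.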
